A study of Mus musculus with 40 samples.

Results

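Transcript levels in whole kidney were compared between mice of 1 week and mice of 4 weeks of age, an interval that includes weaning. The samples were chosen by their labels alone, as the 5 arrays of kidney at 1 week and the 5 of kidney at 4 weeks, which are 10 of the 40 arrays of the study. All mice of the study were males of strain C57BL/6, its organs were heart, lung and kidney, and its labels describe proliferation in the organs as rapid at 1 week, slow at 4 weeks and very slow at 8 weeks. The comparison therefore asks which kidney transcripts change while proliferation slows. Both groups are untreated as far as the labels say, and they name neither an altered gene nor pooled tissue. The labels do not describe how the animals were housed, when pups were weaned or at which hour organs were taken, and the p-values measure the spread between these 5 arrays at each age. The 5 kidney arrays of 8 weeks entered the same fit to estimate that spread, and their mean signals are given beside those of 4 weeks.

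The nephron filters blood in the glomerulus, where podocytes hold back protein, and recovers most of the filtrate along the tubule. The proximal tubule takes back sugar, amino acids, phosphate and filtered protein and secretes organic anions, while the loop of Henle, the distal tubule and the collecting duct set salt and water loss. In mice new nephrons are still laid down in the first days after birth, the tubules lengthen and mature afterwards, and at weaning the diet changes from milk, rich in fat and lactose, to chow.

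The kidney label was first set against marker genes.
All 13 kidney markers on the array were tested, and their mean on the log2(signal + 16) scale lay between 12.73 and 13.05 on the 1-week arrays and between 13.35 and 13.73 on the 4-week arrays.
The deposited values have the same 2%-trimmed mean on each array, and the median signal was between 133.0 and 210.9 (linear intensity).
The 1-week replicate 1 and the 4-week replicate 3 had the lowest medians, 141.8 and 133.0, and the highest signals of the labelling controls, 11.59 and 11.76 (log2) against 10.68 to 11.07 on the other 8 arrays.
The difference between the 3' and the 5' actin probe sets, a measure of RNA integrity, was 0.34 to 0.51 (log2) at 1 week and 0.61 to 1.43 at 4 weeks, so it moved with age and its part in the results was not tested.
Liver genes were highest on the 1-week replicates 1 and 5, and adrenal genes on the 1-week replicates 3 and 4, as the plot of marker lists by array shows.
For Alb, serum albumin, the signals were 11531, 682, 451, 886 and 2921 at 1 week and 414, 391, 322, 390 and 416 at 4 weeks.
For Chgb, chromogranin B of the adrenal medulla, they were 12, 50, 1658, 1615 and 34 at 1 week and 10, 41, 4, 14 and 10 at 4 weeks.
Of 17 liver genes tested 8 fell and 2 rose, and no member of either list was at 0 on all arrays.
Of 12 adrenal genes 1 fell and 0 rose, and 4 fell without the 1-week replicate 1.
The gene that fell was Chgb, at -2.69 (limma adjusted p = 0.034), and without the 1-week replicates 3 and 4 its change was -0.61 (limma adjusted p = 0.2).
Leaving out 1 array ended the call of Chgb for the 1-week replicates 3 and 4 and the 4-week replicates 1, 3, 4 and 5, with changes of -2.69 to -1.90 and adjusted p of 0.056 to 0.093.
The part of liver and adrenal RNA in the results was not tested except where a value without these arrays is given.
Without the pair of arrays high in Alb 5282 genes were called, and without the pair high in adrenal genes 5319, against 5827 with all arrays.

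**Figure D1:**
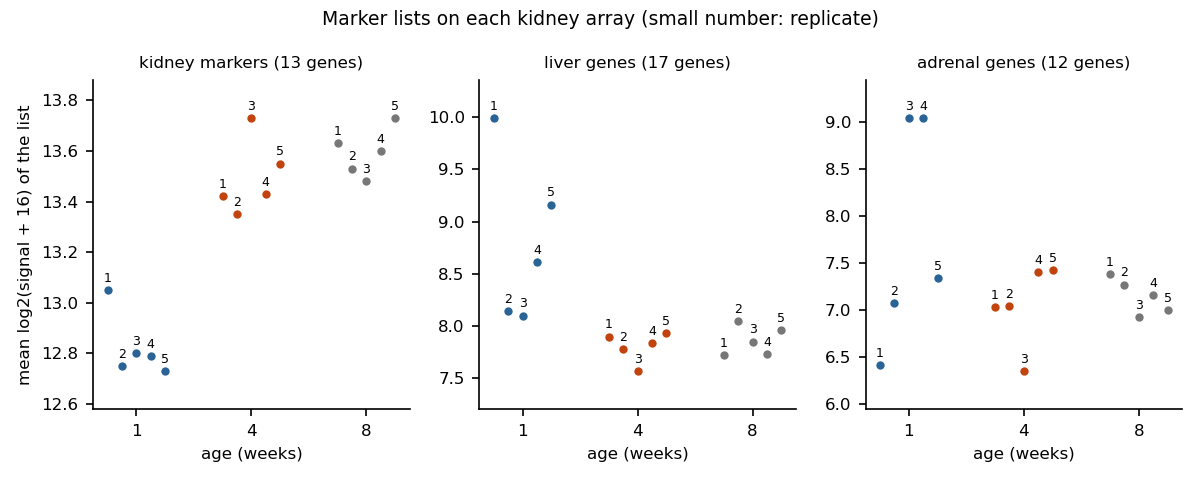
Mean log2(signal + 16) of kidney, liver and adrenal marker genes on each kidney array, by age in weeks, with the replicate number above each point. Kidney markers lie between 12.73 and 13.05 at 1 week and between 13.35 and 13.73 at 4 weeks, liver genes reach 9.99 on 1 array of 1 week, and adrenal genes reach 9.04 on a pair of 1-week arrays.

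More genes fell than rose between 1 and 4 weeks, but the excess was small with quantile normalization added, at 3078 lower and 3013 higher. Of 13645 genes tested, 5827 (42.7%) passed a limma adjusted p under 0.05, of which 2367 (17.3% of those tested) were higher at 4 weeks and 3460 (25.4%) were lower. The counts of each gene list and family below are to be read beside these shares of all genes. A gene was tested when its mean on the log2(signal + 16) scale reached that of a signal of 117.9 at 1, 4 or 8 weeks, and 548 genes were tested through their 1-week level alone against 90 through their 4-week level alone. The median log2 change of all genes tested was -0.05, the median fold was 1.58 among genes that rose and 1.63 among genes that fell. The changes of 614 rising genes (4.5%) and 1041 falling genes (7.63%) were at least 2-fold. Between 8-fold and 16-fold lay 27 rises and 28 falls, and 10 genes rose and 5 fell by at least 16-fold. The 5 arrays of each age did not overlap for 4146 genes (30.4%), 1660 higher (12.2%) and 2486 lower (18.2%). The mean signal was under 117.9 at 1 week for 179 genes that rose and at 4 weeks for 422 genes that fell, and the size of such a change depends on the offset of 16. In whole organs, fewer cells of a type and less RNA per cell cannot be told apart. The gene lists below were chosen with earlier results of these data known, so their counts describe the members and are not independent support.

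**Figure D2:**
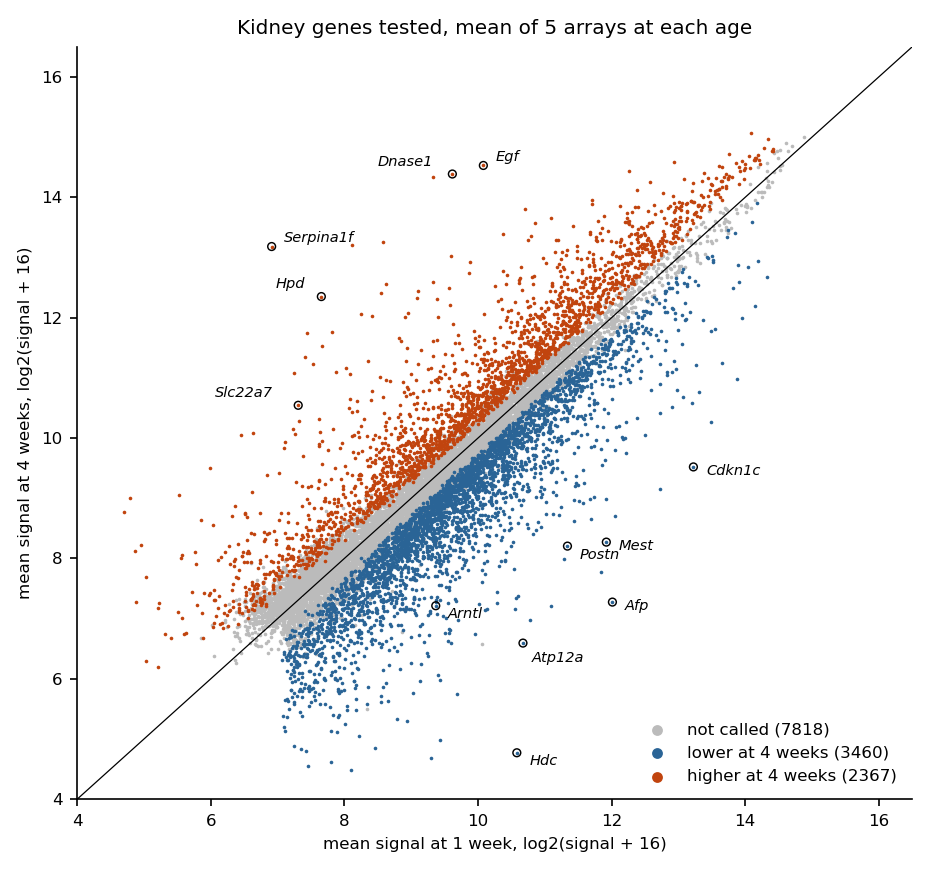
Each point is 1 of 13645 genes tested, with its mean signal of 5 arrays at 1 week (x axis) and at 4 weeks (y axis) as log2(signal + 16), and the line marks equal signals. The 2367 genes called higher and the 3460 called lower are coloured, and named genes are circled, from Serpina1f and Hpd far above the line to Hdc and Afp far below it.

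The 20 largest rises were led by secreted proteins and by enzymes that act on steroids, amino acids and foreign compounds. Serpina1f encodes a member of the alpha-1-antitrypsin family of protease inhibitors, and its signals were 89, 97, 133, 122 and 80 at 1 week and 8434, 9132, 9857, 9037 and 9983 at 4 weeks. Its log2 change of 6.29 ± 0.11 (SE; limma adjusted p = 6.5e-15), 78.3-fold, was the largest rise, and the 8-week mean was 9283. Egf encodes epidermal growth factor, which the distal convoluted tubule makes as a membrane precursor and sheds into urine. Egf signals were 1320, 963, 1039, 1177 and 837 at 1 week and 20157, 20701, 28776, 22513 and 26166 at 4 weeks, without overlap, a log2 change of 4.45 ± 0.14 (SE; limma adjusted p = 2.6e-12). Dnase1, the secreted DNA-cutting enzyme, gave 813, 731, 788, 1032 and 481 at 1 week and 19550, 17408, 26361, 19765 and 24141 at 4 weeks, a log2 change of 4.80 ± 0.17 (SE; limma adjusted p = 1e-11). The guanylin-type peptide hormone gene Guca2b (uroguanylin), which acts on salt excretion, gave 159, 154, 191, 162 and 118 at 1 week and 3126, 2759, 4379, 3323 and 3518 at 4 weeks, a log2 change of 4.31 ± 0.16 (SE; limma adjusted p = 2.3e-11). In each of these 4 genes the lowest 4-week array was above the highest 1-week array. Lipid and steroid enzymes of the same group were the carboxylesterase Ces1d, with means of 261 ± 144 (SD, n = 5) and 9489 ± 876 (SD, n = 5) and a log2 change of 5.25, and the hydroxysteroid dehydrogenase Akr1c21, with 629 ± 122 (SD, n = 5) and 20695 ± 2925 (SD, n = 5) and a change of 5.01. The others of these 20 were Hpd 4.71, Rdh16f2 4.68, Nat8f5 4.25, Adtrp 3.99, Gldc 3.96, Acnat2 3.95 and Aass 3.94 and Slc22a22 3.85, Cyp4b1 3.85, Haao 3.83, Ugt2b38 3.83, Treh 3.61, Gnmt 3.61 and Ugt3a1 3.60 (log2 change). Placeholder symbols (such as those ending in Rik) were left out of the 20 rises and the 20 falls, and 9 of the 10 genes that rose at least 16-fold are among those named. Among them Hpd and Haao take part in the breakdown of tyrosine and tryptophan, Gldc in that of glycine and Aass in that of lysine. Gnmt methylates glycine, and Treh splits trehalose at the brush border. At 1 week the mean signals of Serpina1f, Nat8f5, Acnat2, Treh and Gnmt were 104, 12, 10, 71 and 30, all under 117.9, so that the size of these 5 rises depends on the offset.

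The 20 largest falls held a histamine-forming enzyme, a proton pump, plasma proteins of the fetus and genes of mesenchyme and matrix. Hdc, histidine decarboxylase, which makes histamine, gave 1894, 1482, 1171, 1928 and 1109 at 1 week and 6, 14, 5, 19 and 12 at 4 weeks. The highest array of 4 weeks was at 19 and the lowest of 1 week at 1109, and the log2 change was -5.80 ± 0.17 (SE; limma adjusted p = 1.7e-12). Atp12a, the alpha subunit of the colonic type of proton-potassium pump, gave 1756, 1952, 1332, 1835 and 1217 at 1 week and 67, 74, 73, 74 and 115 at 4 weeks, a log2 change of -4.08 ± 0.17 (SE; limma adjusted p = 6.2e-11). Afp, alpha-fetoprotein, gave 5367, 2772, 4121, 5134 and 3200 at 1 week and 183, 111, 145, 137 and 118 at 4 weeks, a log2 change of -4.71 ± 0.19 (SE; limma adjusted p = 5.4e-11). Serpina6, corticosteroid-binding globulin, gave 16321, 8396, 9830, 10960 and 11996 at 1 week and 620, 1262, 1009, 1339 and 1823 at 4 weeks, and the 8-week mean was 86. Its log2 change from 1 to 4 weeks was -3.28 ± 0.28 (SE; limma adjusted p = 1.5e-07). Among the other falls were the opioid peptide precursor Penk (-4.06), the defensin Defb19 (-4.05), the growth factor Ptn (-3.87), the mesenchymal cadherin Cdh11 (-3.58) and the mesenchymal transcription factor Snai2 (-3.43). The matrix or secreted proteins Hmcn1, Thbs2, Ccn4, Lrrc17 and Ccdc80 changed by -3.92, -3.43, -3.60, -3.39 and -3.35. The rest were Cdkn1c -3.70, Cdca7 -3.70, Mest -3.66, Podxl2 -3.58, Ahsg -3.52 and Tubb6 -3.29. Ahsg, fetuin A, had a 1-week mean of 614 ± 777 (SD, n = 5), an SD larger than the mean, and its 1-week arrays rank in the same order as those of Alb. Replicate 1 was also the highest 1-week array of Afp and of Serpina6, replicate 5 was the next highest for Serpina6 and the fourth for Afp, and the part of liver RNA in these falls was not tested. Without the pair of 1-week arrays high in Alb the change of Ahsg was -2.11 (limma adjusted p = 0.00069), that of Afp -4.67 (limma adjusted p = 2.8e-09) and that of Serpina6 -3.07 (limma adjusted p = 5.3e-06).

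**Figure D3:**
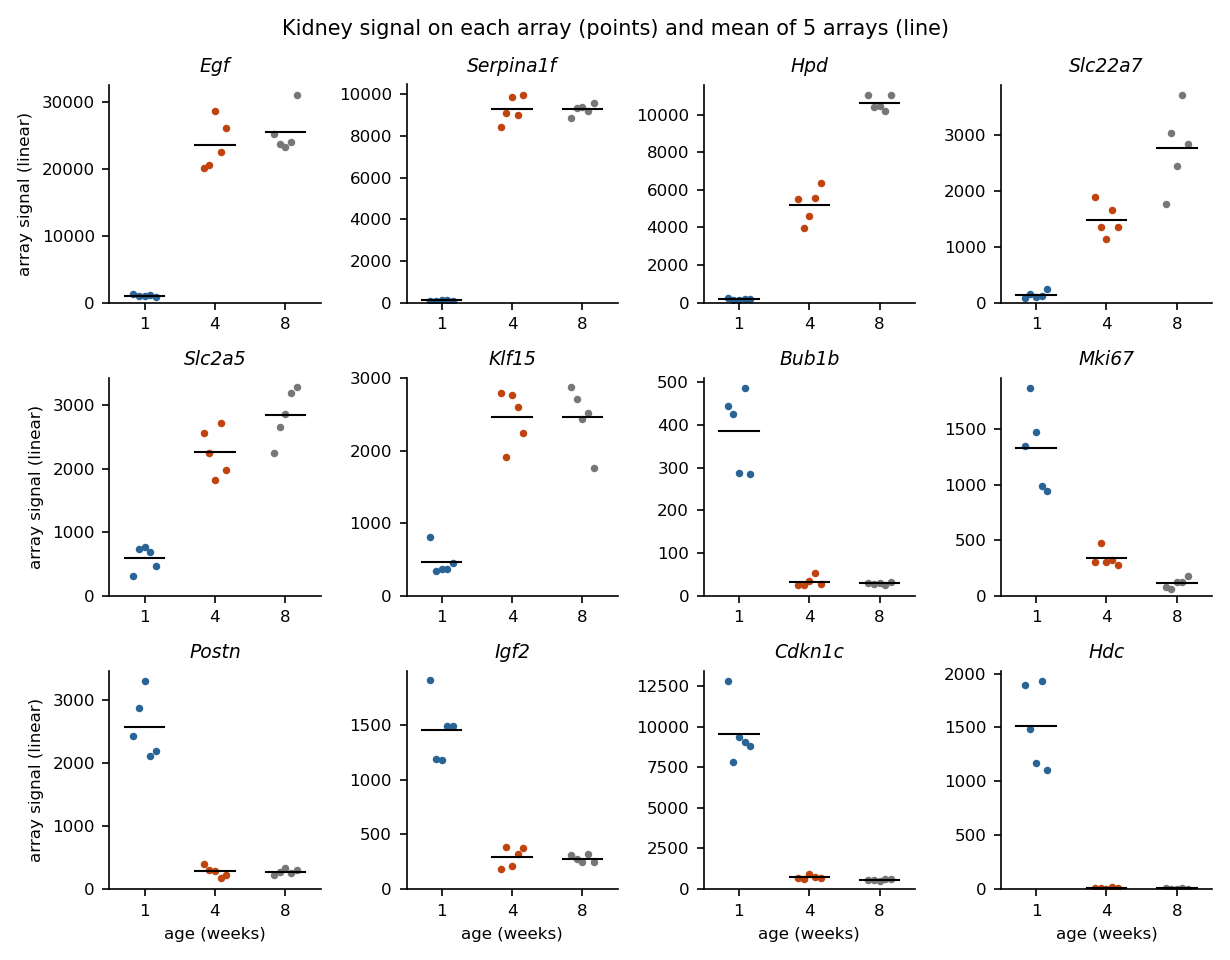
Linear signal of 12 genes on each kidney array at 1, 4 and 8 weeks (points), with the mean of 5 arrays as a line, on y axes that start at 0. In all 12 the 1-week and 4-week arrays are separate, and the 8-week arrays of Hpd and Mki67 lie beyond all of those of 4 weeks in the same direction.

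Genes of cell division fell as a group.
Of 38 genes of mitosis and cytokinesis tested, 35 fell, 0 rose and 3 did not pass the test, with a median log2 change of -1.33, against 25.4% of all genes falling.
Mki67, the proliferation marker, gave 1348, 1869, 1476, 987 and 943 at 1 week and 308, 476, 302, 326 and 274 at 4 weeks, a log2 change of -1.90 ± 0.24 (SE; limma adjusted p = 1.1e-05), and its 8-week mean was 114.
Bub1b, a kinase of the spindle checkpoint, gave 445, 425, 288, 487 and 284 at 1 week and 26, 25, 34, 54 and 28 at 4 weeks, a log2 change of -3.02 ± 0.17 (SE; limma adjusted p = 1.5e-09).
For Top2a, the topoisomerase that untangles sister chromatids, the signals were 1002, 1422, 1268, 1023 and 975 at 1 week and 296, 297, 295, 220 and 314 at 4 weeks, a log2 change of -1.94 ± 0.12 (SE; limma adjusted p = 7.4e-09).
In these 3 genes each 4-week array lay below each 1-week array.
Ube2c, which works with the anaphase-promoting complex, gave 808, 922, 733, 744 and 627 at 1 week and 142, 228, 191, 147 and 260 at 4 weeks, a log2 change of -1.92 ± 0.26 (SE; limma adjusted p = 2.4e-05).
The ages were separate in Ube2c too, and for Top2a the arrays of 4 weeks lay above the 8-week mean of 156.
Melk, Bub1 and Kif22 had changes of -2.50, -2.45 and -2.33, and the members not called were Kif2c -0.03, Tpx2 0.09 and Spag5 -0.10. Within each age Kif2c, Tpx2 and Spag5 were lowest on the arrays with the lowest medians, the 1-week replicate 1 and the 4-week replicate 3.
Of 3 other probe sets of Tpx2, which builds the spindle, 2 were called lower.

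The promoters of the mitosis genes are shown because they share short sequence elements.
Below are the 200 bases before the start of Mki67, Ube2c and Top2a (RefSeq, GRCm38.p6), 5' to 3' on the strand of the gene, with CCAAT and TTTGAA in capitals, and also their reverse complements ATTGG and TTCAAA.
Mki67, chr7:135716380-135716579, minus strand: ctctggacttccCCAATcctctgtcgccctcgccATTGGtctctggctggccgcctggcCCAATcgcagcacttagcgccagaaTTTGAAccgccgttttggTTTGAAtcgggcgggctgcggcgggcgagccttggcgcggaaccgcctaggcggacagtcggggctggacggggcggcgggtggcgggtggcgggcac
Ube2c, chr2:164769729-164769928, plus strand: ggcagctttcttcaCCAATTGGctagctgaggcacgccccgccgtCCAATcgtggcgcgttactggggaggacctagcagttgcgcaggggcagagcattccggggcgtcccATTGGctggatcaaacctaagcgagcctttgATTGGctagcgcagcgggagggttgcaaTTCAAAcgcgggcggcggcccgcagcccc
Top2a, chr11:99024190-99024389, minus strand: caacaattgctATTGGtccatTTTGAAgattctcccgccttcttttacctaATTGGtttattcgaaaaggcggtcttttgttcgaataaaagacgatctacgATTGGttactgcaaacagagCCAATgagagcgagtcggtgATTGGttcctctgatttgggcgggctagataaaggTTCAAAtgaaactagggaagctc
CCAAT is the box bound by NF-Y, and TTTGAA is the cell cycle genes homology region (CHR).
Matches were counted on both strands and separately for each motif, so that a CCAAT match can overlap its own reverse complement, as it does once in Ube2c.
In windows of 300 bases around the start, TTTGAA was in 80% of the 35 windows of the mitosis genes, in 11.5% of the 26 windows of the DNA replication genes and in 17.9% of all 32851 windows. In the windows of all genes tested its share was 12.3%.
CCAAT was in 77.1% of the mitosis windows, 65.4% of the DNA replication windows, 37.1% of the windows of all genes tested and 37.4% of all windows.
Among all genes that fell, 13.2% of windows held TTTGAA and 36.9% held CCAAT.
A match describes letters in a window and does not show binding.

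The genes that copy DNA fell as well. Of 26 DNA replication genes 23 fell, 0 rose and 3 did not pass the test, with a median log2 change of -0.92. Pole, the catalytic subunit of DNA polymerase epsilon, gave 261, 193, 224, 167 and 190 at 1 week and 12, 20, 20, 22 and 23 at 4 weeks, a log2 change of -2.66 ± 0.13 (SE; limma adjusted p = 1.9e-10), with 4-week signals too low for its size to be exact. The clamp loader Rfc3 and the helicase subunits Mcm3, Gins2, Mcm2 and Mcm5 changed by -1.78, -1.76, -1.67, -1.45 and -1.41, and Mcm10 0.01, Orc1 0.32 and Prim1 -0.20 were not called. Within each age Mcm10, Orc1 and Prim1 were lowest on the arrays with the lowest medians, the 1-week replicate 1 and the 4-week replicate 3. Among 30 cyclins, kinases, E2F factors, inhibitors and pocket proteins 15 fell, 1 rose and 14 did not pass the test, a smaller share than in the 2 lists of division genes, a difference that was not tested. Ccnd2, cyclin D2, changed by -2.10 and E2f8 by -1.52, and the cyclin-dependent kinases Cdk6 and Cdk4 by -1.44 and -1.26. The inhibitors of the cell cycle did not move opposite to these: Cdkn1a (p21) changed by -1.50 and Cdkn1c (p57) by -3.70, while Cdkn1b 0.17, Cdkn2c 0.16 and Cdkn2b -0.02 and the pocket proteins Rb1 0.17 and Rbl2 0.15 were not called. Cdkn1c signals were 12816, 7812, 9379, 9038 and 8798 at 1 week and 658, 598, 931, 733 and 673 at 4 weeks, without overlap. Of 28 genes for S-phase histones and for enzymes that methylate DNA or histones, 20 fell and 1 rose. These included the DNA methyltransferase genes Dnmt3b (-2.15) and Dnmt3a (-1.10), and also Uhrf1 (-1.98) and Ezh2 of the Polycomb complex (-1.54).

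Genes of the extracellular matrix and of the cells that make it fell. Of 16 fibrillar and beaded collagen genes 13 fell and 1 rose, with a median log2 change of -1.75. Col1a1, a chain of collagen I, gave 9772, 6985, 4347, 4821 and 7878 at 1 week and 1261, 1663, 1163, 1208 and 1444 at 4 weeks, a log2 change of -2.26 ± 0.23 (SE; limma adjusted p = 1e-06), and an 8-week mean of 587. Col3a1, the chain of collagen III, gave 21899, 17049, 19286, 17085 and 15788 at 1 week and 5120, 4913, 4826, 4119 and 4350 at 4 weeks, a log2 change of -1.96 ± 0.12 (SE; limma adjusted p = 3.4e-09). Both ages were separate for each of these genes. Others in this list were Col8a2 -2.20, Col6a2 -2.08, Col12a1 -2.02 and Col5a1 -2.00, and Col5a3 -0.46 and Col27a1 0.35 were not called. Of 30 genes for elastic fibres and matricellular proteins 27 fell and 1 rose (median -1.76). Postn, periostin, gave 2424, 2873, 3302, 2103 and 2184 at 1 week and 391, 302, 291, 181 and 230 at 4 weeks, a log2 change of -3.16 ± 0.18 (SE; limma adjusted p = 2.3e-09). Fbn2, the fibrillin of the developing elastic fibre, gave 242, 360, 372, 427 and 487 at 1 week and 44, 72, 39, 62 and 8 at 4 weeks, a log2 change of -2.79 ± 0.30 (SE; limma adjusted p = 1.9e-06). Thbs2, Mfap4, Mfap2 and Emilin1 changed by -3.43, -2.84, -2.67 and -2.46. In the list of 27 basement membrane genes 22 fell and 2 rose. Hmcn1, hemicentin, gave 1514, 2676, 2678, 2039 and 1983 at 1 week and 146, 214, 94, 127 and 81 at 4 weeks, a log2 change of -3.92 ± 0.22 (SE; limma adjusted p = 1.3e-09), and Frem1, Lama4, Lama1 and Nid1 changed by -3.22, -2.85, -2.83 and -1.84. Col4a3, named after its value was seen as a chain of the mature glomerular network, was higher, at 0.73, and at 0.48 (limma adjusted p = 0.12) without the pair of arrays high in adrenal genes, while Col4a4, a partner chain, was not called at 0.17. Of 18 genes of stroma, pericytes and smooth muscle 15 fell (median -1.76), among them Tcf21 -2.56, Acta2 -2.41, Vim -2.38, Tagln -2.07, Thy1 -2.01 and Lum -1.91. Serpinh1, the chaperone of collagen, changed by -1.80, in a list of 24 folding genes of the endoplasmic reticulum of which 8 fell and 5 rose, 33.3% and 20.8% beside 25.4% and 17.3% of all genes. Molecules of cell contact and guidance also fell more often than they rose, with 17 of 29 cadherins and protocadherins lower and 1 higher, 12 of 17 Eph receptors and ephrins lower and 0 higher, and 13 of 27 semaphorins and plexins lower and 1 higher.

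Growth factors and their receptors moved in both directions. Igf2, the fetal insulin-like growth factor, gave 1907, 1192, 1177, 1492 and 1491 at 1 week and 188, 383, 208, 320 and 371 at 4 weeks, a log2 change of -2.27 ± 0.19 (SE; limma adjusted p = 1.4e-07). Igf1, the factor that growth hormone induces, gave 3115, 2058, 2000, 1869 and 2484 at 1 week and 1016, 1099, 947, 872 and 913 at 4 weeks, a log2 change of -1.22 ± 0.13 (SE; limma adjusted p = 2.1e-06). Ghr, the growth hormone receptor, gave 4422, 3908, 3845, 2880 and 3440 at 1 week and 10234, 9579, 11198, 10169 and 9060 at 4 weeks, a log2 change of 1.45 ± 0.14 (SE; limma adjusted p = 4.5e-07). Both ages were separate in these 3 genes, with Igf1 and Igf2 lower at 4 weeks and the receptor gene higher. Socs2, an inhibitor of growth hormone signalling, changed by -1.53, the binding proteins Igfbp2 and Igfbp3 by -2.41 and -1.26, and the RNA-binding protein Igf2bp1 by -1.38. Over the 19 genes of this system 5 rose, 8 fell and 6 did not pass the test, and Igfbp5 0.04, Irs1 -0.19 and Stat5b 0.09 were among the last. In the EGF family the ligand Egf rose by 4.45 and the receptor inhibitor Errfi1 by 2.57, while the ligand Hbegf changed by -0.66. The call of the receptor Egfr, at 0.51, was lost without the 4-week replicate 2, at 0.40 (limma adjusted p = 0.053). The ligand Btc, at -0.35, lost its call without the 1-week replicate 1 or 5, at -0.30 (limma adjusted p = 0.052) and -0.30 (limma adjusted p = 0.053). The receptor Erbb2, at -0.31, lost its call without the 1-week replicate 1, the 4-week replicate 3 or the 4-week replicate 5, at -0.21 (limma adjusted p = 0.059), -0.28 (limma adjusted p = 0.057) and -0.29 (limma adjusted p = 0.059). Errfi1 signals were 3112, 1967, 2285, 1947 and 1535 at 1 week and 11105, 12522, 18648, 11056 and 10976 at 4 weeks, separate at both ages. Of 9 members tested 3 rose and 3 fell, and Tgfa -0.07, Nrg4 0.25 and Erbb3 0.30 were not called. The lowest Tgfa signals, 134 and 183, were on the arrays with the lowest medians, the 1-week replicate 1 and the 4-week replicate 3.

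Imprinted genes of fetal growth fell, with 13 of 20 lower, 1 higher and a median log2 change of -1.60. Mest gave 3528, 4138, 3940, 4014 and 3710 at 1 week and 296, 341, 224, 332 and 272 at 4 weeks, a log2 change of -3.66 ± 0.11 (SE; limma adjusted p = 1.8e-12). The highest 4-week array of Mest was at 341 and the lowest 1-week array at 3528. Dlk1, Peg3 and Ndn changed by -2.61, -2.45 and -2.38, and the members not called were Gnas -0.09, Sgce -0.63, Magel2 0.45, Rasgrf1 0.54, Impact -0.03 and Usp29 0.46. Within each age Magel2, Rasgrf1 and Usp29 were lowest on the arrays with the lowest medians, the 1-week replicate 1 and the 4-week replicate 3. Cdkn1c and Igf2, given above, are also in this list. The count of members that rose was 4 without the 4-week replicate 3. Of 33 Wnt and Notch pathway genes 27 fell and 0 rose (median -0.86). The ligand Wnt9b, which the branching ureteric tree makes, changed by -2.39, the receptors Fzd7 and Fzd2 by -1.95 and -1.68, the Notch ligand Jag1 by -1.65 and the Notch target Hey1 by -1.59. Among 33 ligands and receptors of the FGF, BMP, TGF-beta, hedgehog and related pathways 18 fell and 4 rose. The hedgehog effectors Gli2 and Gli1 changed by -3.16 and -1.45, the ligands Tgfb3, Tgfb2 and Pdgfa by -2.36, -1.62 and -1.36, and the receptor Pdgfra by -1.86.

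The ages overlapped in Six2, the marker of nephron progenitors, while other genes of nephron formation fell. Six2 signals were 125, 193, 231, 176 and 268 at 1 week and 256, 246, 107, 271 and 216 at 4 weeks, and the log2 change was 0.11 ± 0.24 (SE; limma adjusted p = 0.75). Its means of 199 and 219 lie near the filter signal of 117.9, so these values do not show whether Six2 was expressed at either age. The lowest signals, 125 and 107, were on the 1-week replicate 1 and the 4-week replicate 3, the arrays with the lowest medians. Of 20 genes of nephron formation 11 fell, 3 rose and 6 did not pass the test. Wt1, a transcription factor of progenitors and podocytes, gave 812, 1278, 882, 1061 and 1317 at 1 week and 187, 308, 191, 220 and 222 at 4 weeks, a log2 change of -2.16 ± 0.17 (SE; limma adjusted p = 7.5e-08). Ncam1, Sox4, Hoxd11 and the stromal factor Foxd1 changed by -2.75, -2.41, -1.71 and -1.52, while Pax8 0.01, Ret -0.08 and Etv5 0.16 were not called. The lowest Ret signals, 95 and 100, were on the same arrays as those of Six2. Of 14 podocyte genes 10 fell and 0 rose (median -1.07). Nphs1, nephrin of the slit diaphragm, gave 1071, 900, 810, 918 and 1088 at 1 week and 554, 590, 495, 526 and 503 at 4 weeks, a log2 change of -0.82 ± 0.12 (SE; limma adjusted p = 4.3e-05). Its 5 arrays of 4 weeks were all below those of 1 week. Tcf21, Foxc2, Synpo, Kirrel and Dach1 changed by -2.56, -1.76, -1.32, -1.20 and -1.15, and Cd2ap -0.24, Actn4 -0.16, Clic5 0.09 and Lmx1b -0.65 were not called. In the endothelial list of 23 genes 13 fell, 1 rose and 9 did not pass the test, with Aplnr at -2.24, Cldn5 at -1.65 and Pecam1 at -1.22 against Flt1 at 0.17 and Eng at -0.08. Of 23 HOX genes 11 fell and 0 rose, 47.8% and 0% beside 25.4% and 17.3% of all genes.

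**Figure D4:**
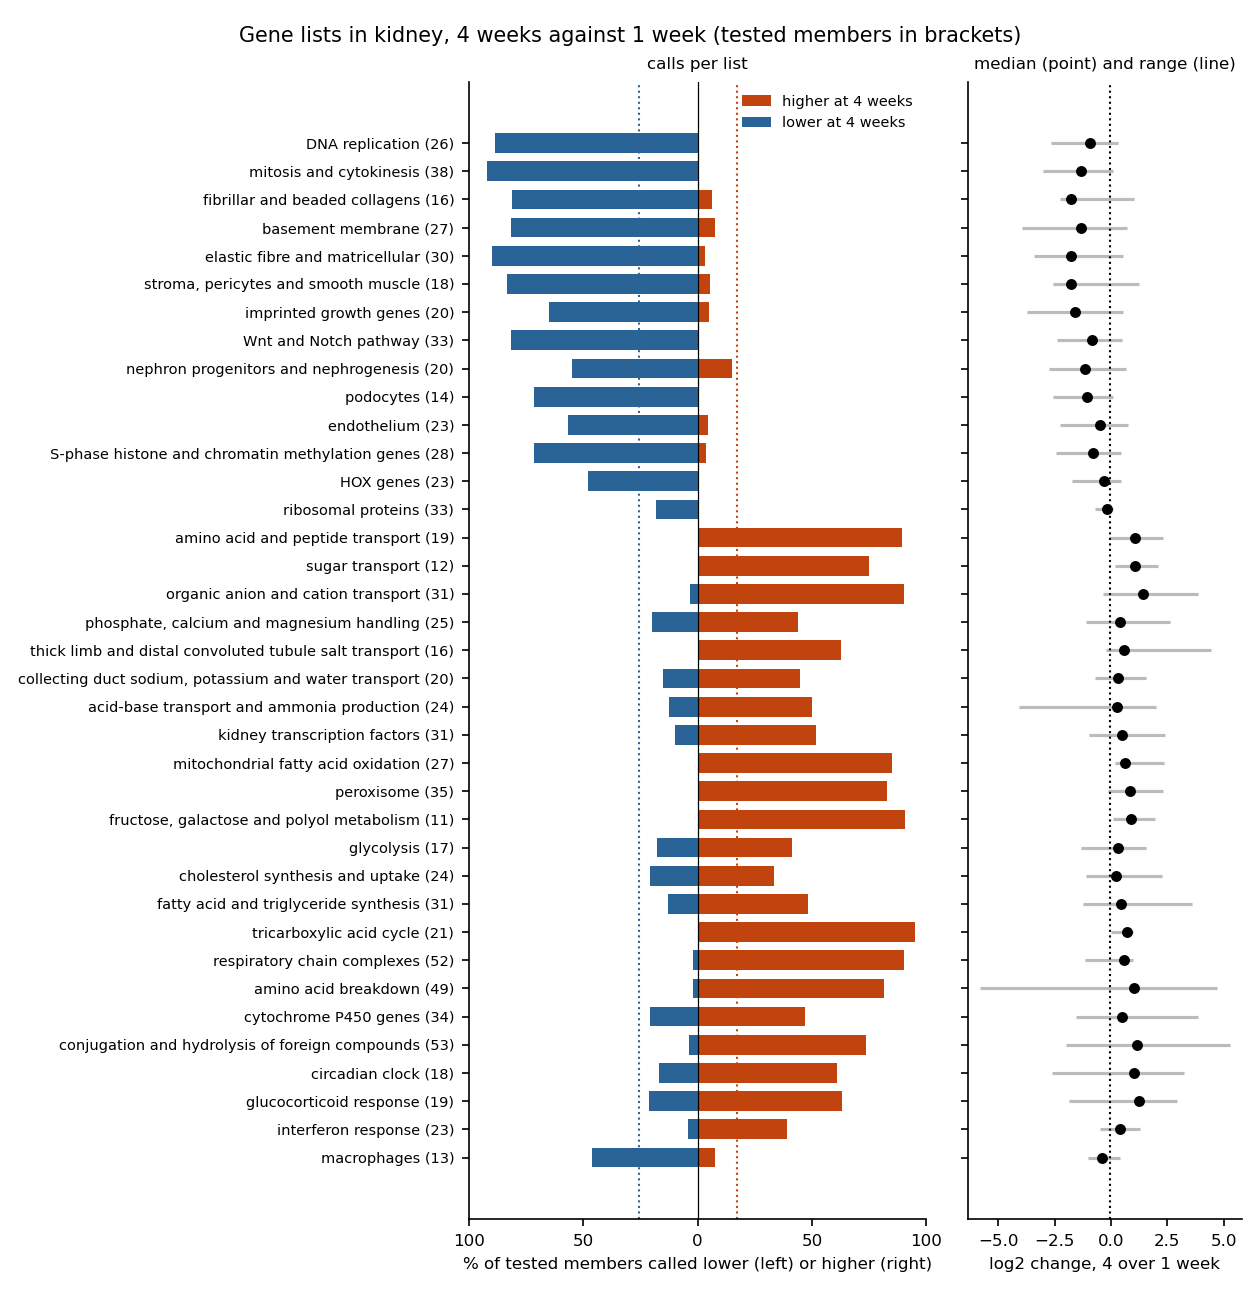
Left, the share of tested members of each gene list called lower (blue, to the left) or higher (orange, to the right) at 4 weeks, with the shares of all genes, 25.4% and 17.3%, as dotted lines. Right, the median log2 change (point) and the range (line) of each list, with the median of all genes, -0.05, as a dotted line; lists of division, matrix and fetal growth lie to the left and lists of transport and mitochondrial metabolism to the right.

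Transporters of the proximal tubule rose. Of 31 carriers of organic anions and cations, the proteins that secrete drugs and waste into urine, 28 rose, 1 fell and 2 did not pass the test, a median log2 change of 1.43 against 17.3% of all genes rising. Slc22a6, the basolateral anion exchanger OAT1, gave 1795, 1580, 1231, 1786 and 1284 at 1 week and 4716, 3764, 5607, 3854 and 3670 at 4 weeks, a log2 change of 1.48 ± 0.14 (SE; limma adjusted p = 3.2e-07). Its neighbour in the genome Slc22a8 (OAT3) gave 4804, 4782, 4561, 4782 and 4953 at 1 week and 13646, 12102, 14191, 11512 and 13196 at 4 weeks, a log2 change of 1.43 ± 0.09 (SE; limma adjusted p = 3e-09). Slc22a7 (OAT2) gave 76, 161, 109, 121 and 246 at 1 week and 1885, 1362, 1135, 1653 and 1354 at 4 weeks, a log2 change of 3.31 ± 0.25 (SE; limma adjusted p = 4.1e-08), and its 8-week mean was 2764. The ages were separate in all 3, and the change of Slc22a7 was the largest of them. Others were Slc22a22, a carrier of prostaglandins (3.85), Slc13a3, a carrier of dicarboxylates (2.66), Abcb1b, a drug pump (2.59), Slco4c1 (2.50) and Slc22a18 (2.39). The members not called were Slc22a29 -0.08 and Abcc3 0.49.

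The upstream sequences of Slc22a6 and Slc22a8, which rose together, and of Haao, 1 of the 20 largest rises, hold GTTAAT (or ATTAAC on the other strand), the core of the site bound by the HNF1 factors, in capitals, in the 200 bases before each start (RefSeq, GRCm38.p6, 5' to 3' on the strand of the gene).
Slc22a6, chr19:8617796-8617995, plus strand: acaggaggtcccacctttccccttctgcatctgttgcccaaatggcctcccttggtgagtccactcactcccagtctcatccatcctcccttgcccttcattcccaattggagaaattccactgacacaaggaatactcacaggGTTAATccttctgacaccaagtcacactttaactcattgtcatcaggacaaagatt
Slc22a8, chr19:8592982-8593181, plus strand: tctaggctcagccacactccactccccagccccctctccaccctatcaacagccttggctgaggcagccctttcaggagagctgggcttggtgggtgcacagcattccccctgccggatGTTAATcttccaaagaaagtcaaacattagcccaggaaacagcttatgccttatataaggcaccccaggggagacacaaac
Haao, chr17:83846791-83846990, minus strand: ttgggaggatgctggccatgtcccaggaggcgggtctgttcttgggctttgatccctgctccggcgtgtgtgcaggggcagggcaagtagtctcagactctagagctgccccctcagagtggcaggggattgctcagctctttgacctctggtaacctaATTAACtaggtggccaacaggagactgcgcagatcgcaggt
The core began 56, 81 and 41 bases before these starts.
It was in 14.2% of the 127 windows of genes that rose at least 4-fold, in 5.88% of the 170 windows of genes that fell at least 4-fold, in 4.85% of the windows of all genes tested and in 7.1% of all windows.
In the windows of all genes that rose the share was 6.88%, in those of the organic ion carriers 9.68% and in those of amino acid breakdown 7.55%.
These shares are counts of letters, with no test, on sets chosen by their change.

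Amino acid and sugar carriers moved the same way. Of 19 amino acid and peptide carriers 17 rose and 0 fell (median 1.07), with Slc7a12 2.32, Slc6a19 2.01, Slc6a20a 1.96, Slc38a3 1.64, Slc1a1 1.60 and Slc15a2 1.36, and Slc7a8 0.32 and Slc7a13 -0.07 were not called. Slc6a19 is the apical carrier of neutral amino acids and Slc1a1 that of glutamate. Of 12 sugar and related carriers 9 rose and 0 fell (median 1.06). Slc2a5, the fructose carrier GLUT5, gave 305, 743, 772, 681 and 472 at 1 week and 2563, 2239, 1817, 2719 and 1973 at 4 weeks, a log2 change of 1.96 ± 0.22 (SE; limma adjusted p = 2.5e-06). The glucose carrier Slc5a2 (SGLT2) rose by 1.48 and Slc5a1 (SGLT1) by 1.17, Slc5a10 and the inositol carrier Slc5a11 by 2.06 and 1.94, and Slc2a1 0.31, Slc2a9 0.17 and Slc5a9 0.29 were not called. In the whole Slc family of 288 tested genes 125 rose and 35 fell, a median of 0.32.

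Enzymes and receptors of the brush border were mixed. Of 14 brush border enzymes and scaffolds 9 rose and 3 fell. Trehalase (Treh) rose by 3.61, alkaline phosphatase (Alpl) by 2.20, maltase-glucoamylase (Mgam) by 1.80 and meprin alpha (Mep1a) by 0.65, while the peptidase Dpp4 changed by -1.38 and Mme 0.34 and Anpep -0.62 were not called. Lrp2, megalin, the receptor that recovers filtered protein, gave 10994, 8490, 8936, 8130 and 8393 at 1 week and 10077, 13435, 18998, 13645 and 13679 at 4 weeks, which overlap, a log2 change of 0.61 ± 0.14 (SE; limma adjusted p = 0.002). Cubn, its partner cubilin, gave 6594, 4392, 4544, 4429 and 4626 at 1 week and 8134, 8103, 10867, 8372 and 9629 at 4 weeks, without overlap, a log2 change of 0.88 ± 0.12 (SE; limma adjusted p = 2.1e-05). Of 16 genes of this uptake path 8 rose and 4 fell, 50% and 25% beside 17.3% and 25.4% of all genes. The median log2 change of this list was 0.30 and its lowest change -0.77. Amn 0.19, Dab2 0.10, Cltc -0.22 and Clcn5 0.14 were not called, and with quantile normalization added only 4 members rose.

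Among 25 genes of phosphate, calcium and magnesium handling 11 rose, 5 fell and 9 did not pass the test. Slc34a3, the phosphate carrier NaPi-IIc, gave 709, 795, 583, 648 and 554 at 1 week and 4757, 3532, 3583, 4202 and 4558 at 4 weeks, a log2 change of 2.62 ± 0.12 (SE; limma adjusted p = 1.7e-10). Slc34a1, the carrier NaPi-IIa, gave 18434, 17468, 19150, 20078 and 18509 at 1 week and 25623, 22914, 31327, 25847 and 28347 at 4 weeks, a log2 change of 0.51 ± 0.11 (SE; limma adjusted p = 0.0019). Both carriers were separate at the ages compared. Cyp27b1, which makes active vitamin D, gave 1139, 1174, 393, 1153 and 1546 at 1 week and 512, 479, 354, 550 and 408 at 4 weeks, with overlap, a log2 change of -1.09 ± 0.29 (SE; limma adjusted p = 0.006), and -0.81 (limma adjusted p = 0.056) without the pair of arrays high in Alb. Cyp24a1, which inactivates it, gave 2404, 1731, 953, 1670 and 635 at 1 week and 2394, 985, 1864, 2633 and 2937 at 4 weeks, with overlap, a log2 change of 0.60 ± 0.40 (SE; limma adjusted p = 0.25). The vitamin D receptor Vdr rose by 1.12, the calcium-binding protein Calb1 by 1.12, the magnesium channel Trpm6 by 0.86 and the klotho gene Kl by 0.64, and Trpv6 0.09 and Cldn16 -0.22 were not called.

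Median changes of the lists past the proximal tubule lay below the medians of the carriers of organic ions, amino acids and sugars. This order did not hold for each list given before. The brush border list had a median of 0.68, but those of protein uptake (0.30) and mineral handling (0.38) lay below the 0.58 of the thick limb list. Of 16 genes of the thick limb and the distal convoluted tubule 10 rose and 0 fell (median 0.58). Umod, uromodulin of the thick limb, gave 15693, 12706, 15129, 14957 and 10646 at 1 week and 24451, 24492, 31815, 24845 and 29511 at 4 weeks, a log2 change of 0.97 ± 0.14 (SE; limma adjusted p = 3.5e-05). The thiazide-sensitive carrier Slc12a3 rose by 1.11, and the distal tubule protein Pvalb by 1.97, and Kcnj1 0.53, Bsnd 0.05 and Kcnj10 0.12 were not called. Of 20 collecting duct genes 9 rose, 3 fell and 8 did not pass the test. Aqp2, the vasopressin-regulated water channel, gave 4335, 3702, 3395, 3929 and 3922 at 1 week and 5743, 4002, 5311, 5095 and 5100 at 4 weeks, which overlap, a log2 change of 0.38 ± 0.11 (SE; limma adjusted p = 0.0091), and 0.17 (limma adjusted p = 0.19) under quantile normalization. Slc14a2, the urea carrier of the inner medulla, gave 2087, 2056, 2101, 2126 and 1868 at 1 week and 1954, 1849, 1845, 1518 and 1799 at 4 weeks, a log2 change of -0.19 ± 0.13 (SE; limma adjusted p = 0.24), which was not called. The vasopressin receptor Avpr2 rose by 1.01, the sodium channel subunit Scnn1a by 0.95, the channel-activating protease Prss8 by 1.12 and the kinase Sgk1, which aldosterone induces, by 1.57. In the list of 14 urine concentration genes 9 rose, among them the carriers of the osmolytes inositol and taurine, Slc5a3 (1.52) and Slc6a6 (1.19), while the transcription factor Nfat5, which responds to osmolality, changed by -1.42. Of 24 acid-base genes 12 rose and 3 fell, with the carbonic anhydrase Car14 at 1.99, the chloride-bicarbonate exchanger Slc26a4 at 1.28 and the sodium-proton exchanger Slc9a3 at 1.27, opposite to Atp12a, given above. Among 17 vasoactive genes 4 rose and 8 fell, 23.5% and 47.1% beside 17.3% and 25.4% of all genes. Agtr2, the angiotensin receptor type 2, which is abundant in the fetal kidney, changed by -2.91, the converting enzyme Ace by -0.72, and the natriuretic peptide genes Npr3 (clearance receptor) and Corin (converting protease) by -1.43 and -1.41.

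Transcription factors of the mature kidney rose more often than they fell, with 16 of 31 higher and 3 lower. Hnf4a, a regulator of proximal tubule genes, gave 6926, 4357, 5165, 4638 and 3800 at 1 week and 10722, 9112, 12404, 10009 and 11565 at 4 weeks, a log2 change of 1.13 ± 0.14 (SE; limma adjusted p = 8.6e-06). Ppara, the receptor that induces fatty acid oxidation, gave 522, 536, 520, 528 and 518 at 1 week and 1979, 1960, 1976, 1933 and 2040 at 4 weeks, a log2 change of 1.88 ± 0.09 (SE; limma adjusted p = 1.7e-10). Klf15 gave 815, 341, 376, 366 and 455 at 1 week and 2802, 1914, 2772, 2601 and 2243 at 4 weeks, a log2 change of 2.41 ± 0.21 (SE; limma adjusted p = 1.7e-07). The ages were separate for these 3 genes. The bile acid receptor Nr1h4, the oxysterol receptor Nr1h3 and the corepressor Nr0b2 rose by 1.85, 1.25 and 1.16, and Thrb 0.20, Ppard 0.12, Rxra 0.10, Irx1 0.00 and Emx2 -0.16 were not called. Of 275 genes named as zinc finger proteins 101 fell and 8 rose, 36.7% and 2.91% beside 25.4% and 17.3% of all genes.

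Enzymes of mitochondria and peroxisomes rose in most lists. Of 52 genes of the respiratory chain 47 rose and 1 fell (median 0.57), with Ndufs1 at 0.96, Cox7a1 at 0.95 and Uqcrq at 0.90, and Cox4i2 0.20, Cox8a 0.43 and Atp5g3 0.29 not called. Ndufs1, a subunit of complex I, gave 3720, 3016, 3112, 2922 and 2662 at 1 week and 5550, 5215, 8008, 5654 and 5794 at 4 weeks, without overlap. Of 21 genes of the tricarboxylic acid cycle and pyruvate entry 20 rose and 0 fell (median 0.70), among them the pyruvate carrier Mpc1 (0.99), Dld (0.95) and Sdhb (0.91), and Idh2 0.02 was not called. Of 76 mitochondrial ribosomal proteins 30 rose and 0 fell (median 0.26). These changes were mostly under 2-fold, and no member of the respiratory chain list rose by more than 0.96 on the log2 scale. Of 27 genes of mitochondrial fatty acid oxidation 23 rose and 0 fell (median 0.64), with Acsm5 2.34, Acad11 1.87, Acsm2 1.69 and Pdk4 1.54, and Hadhb 0.48, Eci1 0.33, Ucp3 0.17 and Acot2 0.18 were not called. Pdk4 restrains the use of pyruvate, and the Acsm enzymes activate medium-chain acids. Of 35 peroxisomal genes 29 rose and 0 fell (median 0.82). Acox2, the oxidase for branched fatty acids and bile acid precursors, gave 463, 739, 595, 713 and 631 at 1 week and 2568, 3244, 3236, 2974 and 3581 at 4 weeks, a log2 change of 2.29 ± 0.12 (SE; limma adjusted p = 1e-09). Nudt19, Ephx2, Ehhadh and Acaa1b rose by 2.20, 1.96, 1.78 and 1.75, and the members not called were mostly assembly factors, Pex2 0.19, Pex3 0.19, Pex5 0.06, Pex14 -0.13 and Pex19 0.10, beside Gnpat, of ether lipid synthesis, at 0.20. Among 7 genes of ketone body metabolism 5 rose and 1 fell, with the dehydrogenases Bdh1 and Bdh2 at 1.49 and 1.45, the ketone-using enzyme Oxct1 at 1.22 and the monocarboxylate carrier Slc16a1 at -0.71.

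Sugar metabolism changed in part. Of 11 genes of fructose, galactose and polyol metabolism 10 rose and 0 fell (median 0.90). Khk, ketohexokinase, which phosphorylates fructose, gave 2804, 1922, 2238, 2392 and 1976 at 1 week and 9350, 7319, 10130, 8667 and 8027 at 4 weeks, a log2 change of 1.94 ± 0.12 (SE; limma adjusted p = 3.4e-09). All 4-week arrays of Khk were above all 1-week arrays, as were those of the fructose carrier Slc2a5. Xylb rose by 1.01, Miox, which oxidises inositol, by 0.97, Tkfc by 0.90 and Glyctk by 0.90, and Galk2 0.10 was not called. Of 11 gluconeogenic genes 7 rose, 1 fell and 3 did not pass the test. Pck1, the cytosolic rate-setting enzyme, gave 6392, 5698, 5841, 6289 and 4527 at 1 week and 5310, 10700, 14210, 10988 and 13288 at 4 weeks, which overlap, a log2 change of 0.85 ± 0.21 (SE; limma adjusted p = 0.0039). G6pc, which releases glucose, gave 10348, 9440, 9980, 9726 and 8292 at 1 week and 15532, 16635, 23906, 18573 and 21850 at 4 weeks, without overlap, a log2 change of 1.00 ± 0.12 (SE; limma adjusted p = 4.1e-06). Its carrier partner Slc37a4 rose by 1.26, the mitochondrial Pck2 changed by -0.78, and Pcx -0.33, Fbp2 -0.10 and G6pc3 0.23 were not called. Fbp1, fructose bisphosphatase, at 0.38 ± 0.13 (SE; limma adjusted p = 0.027), overlapped between the ages and lost its call without any of the 1-week replicates 2, 3 and 5 or the 4-week replicates 3 and 5, with changes of 0.32 to 0.37 and adjusted p of 0.052 to 0.068. Of 17 glycolytic genes 7 rose, 3 fell and 7 did not pass the test, with the aldolase Aldoc at 1.56 and hexokinase Hk2 at -1.33. These shares were 41.2% higher and 17.6% lower, beside 17.3% and 25.4% of all genes.

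Enzymes that break down amino acids rose, with 40 of 49 higher, 1 lower and a median log2 change of 1.04. Hpd, 4-hydroxyphenylpyruvate dioxygenase of tyrosine breakdown, gave 256, 162, 125, 212 and 173 at 1 week and 5533, 3969, 4615, 5563 and 6377 at 4 weeks, a log2 change of 4.71 ± 0.16 (SE; limma adjusted p = 6.9e-12), and its 8-week mean was 10619. Gldc, the decarboxylating protein of the glycine cleavage system, gave 149, 231, 95, 185 and 112 at 1 week and 1759, 2074, 3228, 2722 and 3161 at 4 weeks, a log2 change of 3.96 ± 0.26 (SE; limma adjusted p = 1e-08). Haao, of tryptophan breakdown, gave 228, 74, 210, 94 and 240 at 1 week and 2434, 2353, 2251, 2733 and 2239 at 4 weeks, a log2 change of 3.83 ± 0.25 (SE; limma adjusted p = 8.2e-09). No array of 1 week reached the lowest of 4 weeks in these 3 genes. The gene that fell was Hdc, given above, and Tat 0.02, Agxt -0.02, Agxt2 0.28, Tdo2 -0.09, Bcat1 0.53 and Bcat2 0.44 were among the 8 not called. Of 14 genes for creatine, carnitine, taurine and polyamines 9 rose and 1 fell. Bbox1, the last enzyme of carnitine synthesis, rose by 2.54, the carnitine carrier Slc22a5 by 1.48, ornithine decarboxylase Odc1 by 1.14 and Gatm, which starts creatine synthesis, by 0.56, with 0.31 (limma adjusted p = 0.054) under quantile normalization.

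More genes of lipid synthesis rose than fell, and many were not called. Of 31 genes of fatty acid and triglyceride synthesis 15 rose, 4 fell and 12 did not pass the test. The shares that rose and fell were 48.4% and 12.9% beside 17.3% and 25.4% of all genes. Scd1, stearoyl-CoA desaturase, gave 267, 536, 1490, 827 and 664 at 1 week and 11285, 6787, 10040, 5643 and 7981 at 4 weeks, a log2 change of 3.60 ± 0.32 (SE; limma adjusted p = 2.5e-07), and its 8-week mean was 16764. Apob and its loading protein Mttp rose by 2.37 and 1.72, the malic enzyme Me1 by 1.95 and the carbohydrate-response factor Mlxipl by 1.74, while Fasn 0.37, Acaca 0.32 and Srebf1 -0.39 were not called. Of 24 genes of cholesterol synthesis and uptake 8 rose and 5 fell, 33.3% and 20.8% beside 17.3% and 25.4% of all genes, with the demethylase Cyp51 at 2.25 against mevalonate kinase Mvk at -1.10.

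Genes that alter foreign compounds rose more often than they fell.
Of 53 genes of conjugation and hydrolysis 39 rose and 2 fell (median 1.13), with Ces1d 5.25, Nat8f5 4.25, Ugt2b38 3.83, Ugt3a1 3.60, Nat8 3.38 and Ces1f 3.23. The lowest change in this list was -2.
Of 20 glutathione S-transferases 14 rose and 0 fell.
Of 34 cytochrome P450 genes 16 rose and 7 fell, 47.1% and 20.6% beside 17.3% and 25.4% of all genes. The largest rises were Cyp4b1 3.85, Cyp2d12 3.27, Cyp2e1 2.95, Cyp2j11 2.64 and Cyp2d9 2.26, and the lowest change was -1.55.
Signals of P450, UGT and carboxylesterase genes can be shared between near-identical copies on the array.
In a list of 18 genes reported to be higher in male than in female kidney 13 rose and 1 fell, and in a list of 10 genes reported to be higher in females 6 rose and 2 fell, so that genes of both kinds were higher in these male kidneys at 4 weeks.
The lists hold Serpina1f 6.29, Cyp4b1 3.85, Nat8 3.38, Cyp2e1 2.95 and Hsd11b1 2.11 on the male side, with Slc7a13 -0.07, Kap 0.29 and Timd2 0.51 not called, and Slc22a22 3.85, Slc7a12 2.32, Cyp4a14 1.36 and Abcc4 1.11 on the female side.
A second probe set of Timd2 was called in the opposite direction.
Of 24 antioxidant and glutathione genes 16 rose and 3 fell.
Catalase (Cat) rose by 1.13 and Gpx6 by 1.94, while the metal-binding metallothioneins Mt1 and Mt2 changed by -1.31 and -1.71.
Mt2 signals were 14799, 8372, 12465, 10616 and 11060 at 1 week and 4305, 3531, 4037, 2636 and 2977 at 4 weeks, separate at both ages.
In the iron and haem list of 23 genes 9 rose and 6 fell, 39.1% and 26.1% beside 17.3% and 25.4% of all genes. The copper oxidases Cp and Heph were at 1.25 and -1.51 and Alas1, which starts haem synthesis, at 1.20.

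Clock genes changed in 2 opposite sets. Arntl, which encodes the activator BMAL1, gave 586, 570, 743, 747 and 579 at 1 week and 146, 71, 189, 74 and 183 at 4 weeks, a log2 change of -2.24 ± 0.23 (SE; limma adjusted p = 1.1e-06), and Npas2, which can pair with BMAL1, changed by -2.61. Dbp, a target of that activator, gave 551, 696, 510, 552 and 340 at 1 week and 6703, 5324, 3499, 6224 and 4005 at 4 weeks, a log2 change of 3.23 ± 0.20 (SE; limma adjusted p = 4.5e-09). Its arrays were all higher at 4 weeks, and those of Arntl all lower, while the other probe set of Arntl had the opposite sign and was not called. The repressors Nr1d1, Nr1d2 and Ciart rose by 1.86, 1.81 and 1.74, and Clock 0.05, Cry2 -0.40, Nfil3 -0.52 and Bhlhe41 0.39 were not called. Of 18 members 11 rose and 3 fell (median 1.04). The hour of sampling is not in the labels, so hour and age cannot be told apart for these genes. Of 19 genes that glucocorticoids induce 12 rose and 4 fell (median 1.22). Zbtb16 gave 48, 175, 141, 126 and 181 at 1 week and 685, 1194, 1636, 1488 and 612 at 4 weeks, a log2 change of 2.92 ± 0.41 (SE; limma adjusted p = 3.3e-05), and its 8-week mean was 416. Fkbp5, Hsd11b1, Klf15 and Errfi1 rose by 2.02, 2.11, 2.41 and 2.57, Lcn2 changed by -1.87, and the receptor gene Nr3c1 was not called at -0.06. Among 17 immediate early genes 8 fell and 3 rose, with Egr1 at -1.46, Fos at -0.71 and Dusp1 at 1.22.

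Immune genes moved in both directions. H2-Aa, an MHC class II chain, gave 538, 328, 547, 568 and 389 at 1 week and 3668, 1996, 2971, 2673 and 3008 at 4 weeks, a log2 change of 2.56 ± 0.17 (SE; limma adjusted p = 1.1e-08), and its partner Cd74 rose by 1.71, while H2-Ab1 -0.05 and Ciita 0.13 were not called, although both other probe sets of H2-Ab1 were called higher. Of 16 antigen presentation genes 6 rose and 1 fell, and of 23 interferon-induced genes 9 rose and 1 fell, with Cxcl9 1.28, Gbp3 1.02 and Gbp2 0.87. Of 13 macrophage genes 6 fell and 1 rose, 46.2% and 7.69% beside 25.4% and 17.3% of all genes. The mannose receptor Mrc1 was at -1.02, Cx3cr1 at -0.82 and Csf1r at 0.40. Of 14 complement and acute phase genes 8 fell and 2 rose, with haptoglobin (Hp) at -2.42. Hp signals at 1 week were 572, 58, 88, 117 and 268, highest on replicates 1 and 5, the pair of arrays high in Alb. The part of liver RNA in the fall of Hp was not tested. Only 8 of 17 lymphocyte genes on the array were tested, and 1 rose. Of 33 cytosolic ribosomal proteins 6 fell and 0 rose (median -0.17), but 28 fell with quantile normalization added, 10 fell when the 4-week replicate 3 was left out, and 2 fell when the pair of arrays high in adrenal genes was left out. Of 47 proteasome genes 4 rose and 1 fell, 8.51% and 2.13% beside 17.3% and 25.4% of all genes.

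The kidney's change was set against that of lung and heart to ask which changes the organs share. The difference of the changes passed a limma adjusted p under 0.05 for 3428 of 14422 genes (23.8%) against lung and for 2421 of 14063 (17.2%) against heart, in a fit of all 40 arrays as labelled. On lung 1-week replicate 4 and heart 1-week replicate 5 the organ genes go against the labels, and without these arrays 3936 and 3521 genes differed. Changes and differences below are from all arrays unless stated, and a difference is the kidney's change minus the other organ's. Mki67 changed by -1.85 in lung and -2.09 in heart (log2), and its difference from the kidney was -0.05 ± 0.45 (SE; limma adjusted p = 0.95) and 0.18 ± 0.45 (SE; limma adjusted p = 0.84). Top2a differed by -0.28 ± 0.29 (SE; limma adjusted p = 0.52) and -0.01 ± 0.29 (SE; limma adjusted p = 0.99), and neither gene passed the test of the difference. Igf2 differed by 0.29 ± 0.58 (SE; limma adjusted p = 0.76) and -0.21 ± 0.58 (SE; limma adjusted p = 0.86), and Fbn2 by 0.36 ± 0.36 (SE; limma adjusted p = 0.5) and 0.17 ± 0.36 (SE; limma adjusted p = 0.82). Mest changed by -3.48 in lung and -2.80 in heart, with a difference of -0.18 ± 0.15 (SE; limma adjusted p = 0.4) from lung and -0.86 ± 0.15 (SE; limma adjusted p = 4.8e-05) from heart. Cdkn1c changed by 0.03 in lung and -0.67 in heart, and the kidney's fall differed from both, by -3.73 ± 0.26 (SE; limma adjusted p = 6.4e-13) and -3.03 ± 0.26 (SE; limma adjusted p = 1e-10). Col3a1 fell further in kidney than it changed in lung and heart, with differences of -1.70 ± 0.14 (SE; limma adjusted p = 3.6e-11) and -1.64 ± 0.14 (SE; limma adjusted p = 1e-10).

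Of the clock genes, Dbp changed by 2.89 in lung and 2.24 in heart and Arntl by -1.77 and -1.73. Kidney minus lung was -0.47 ± 0.27 (SE; limma adjusted p = 0.2) for Arntl and 0.35 ± 0.40 (SE; limma adjusted p = 0.58) for Dbp, and kidney minus heart was -0.51 ± 0.27 (SE; limma adjusted p = 0.2) and 1.00 ± 0.40 (SE; limma adjusted p = 0.087). Npas2 fell further in kidney, with differences of -1.64 ± 0.32 (SE; limma adjusted p = 0.00021) against lung and -2.14 ± 0.32 (SE; limma adjusted p = 5e-06) against heart. Klf15 changed by 4.21 in lung and 3.33 in heart, and the kidney's rise was smaller than the change in lung, with a difference of -1.79 ± 0.47 (SE; limma adjusted p = 0.005), and not distinguished from that in heart, at -0.92 ± 0.47 (SE; limma adjusted p = 0.2). Mt2 changed by 0.22 and 0.77 in lung and heart, and the kidney's fall differed by -1.93 ± 0.26 (SE; limma adjusted p = 6.5e-07) and -2.48 ± 0.26 (SE; limma adjusted p = 5.2e-09). Ghr rose in kidney relative to both, by 1.86 ± 0.24 (SE; limma adjusted p = 3.8e-07) and 0.94 ± 0.24 (SE; limma adjusted p = 0.005). The largest positive differences were mainly the kidney's own rises, such as Serpina1f with 6.16 ± 0.49 (SE; limma adjusted p = 8.2e-12) and 6.31 ± 0.49 (SE; limma adjusted p = 4.6e-12), Egf with 4.87 ± 0.27 (SE; limma adjusted p = 1.7e-15) and 4.30 ± 0.27 (SE; limma adjusted p = 2.4e-14), and Hpd with 4.92 ± 0.29 (SE; limma adjusted p = 6.9e-15) and 4.81 ± 0.29 (SE; limma adjusted p = 1.3e-14). The largest negative differences included Hdc, at -6.72 ± 0.83 (SE; limma adjusted p = 1.4e-07) and -3.42 ± 0.83 (SE; limma adjusted p = 0.0028), and Atp12a, at -4.59 ± 0.46 (SE; limma adjusted p = 1.6e-09) and -4.11 ± 0.46 (SE; limma adjusted p = 2.1e-08). Some came from the other organ, as for Slc4a1, the anion exchanger of red cells and of the collecting duct, which changed by -3.34 in lung and 0.57 in kidney, a difference of 3.91 ± 0.52 (SE; limma adjusted p = 6.1e-07). Without both doubted arrays the differences from lung and heart were -3.48 and -3.19 for Cdkn1c, -0.27 and -0.84 for Mest, -2.23 and -0.55 for Klf15, -5.77 and -4.11 for Hdc and 4.65 and 4.46 for Egf, and that of Slc4a1 from lung was 4.27. Of the differences given here, that of Dbp from heart passed the test without these arrays and not with them, at 1.35 (adjusted p = 0.0009), and the others kept their side of the threshold.

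**Figure D5:**
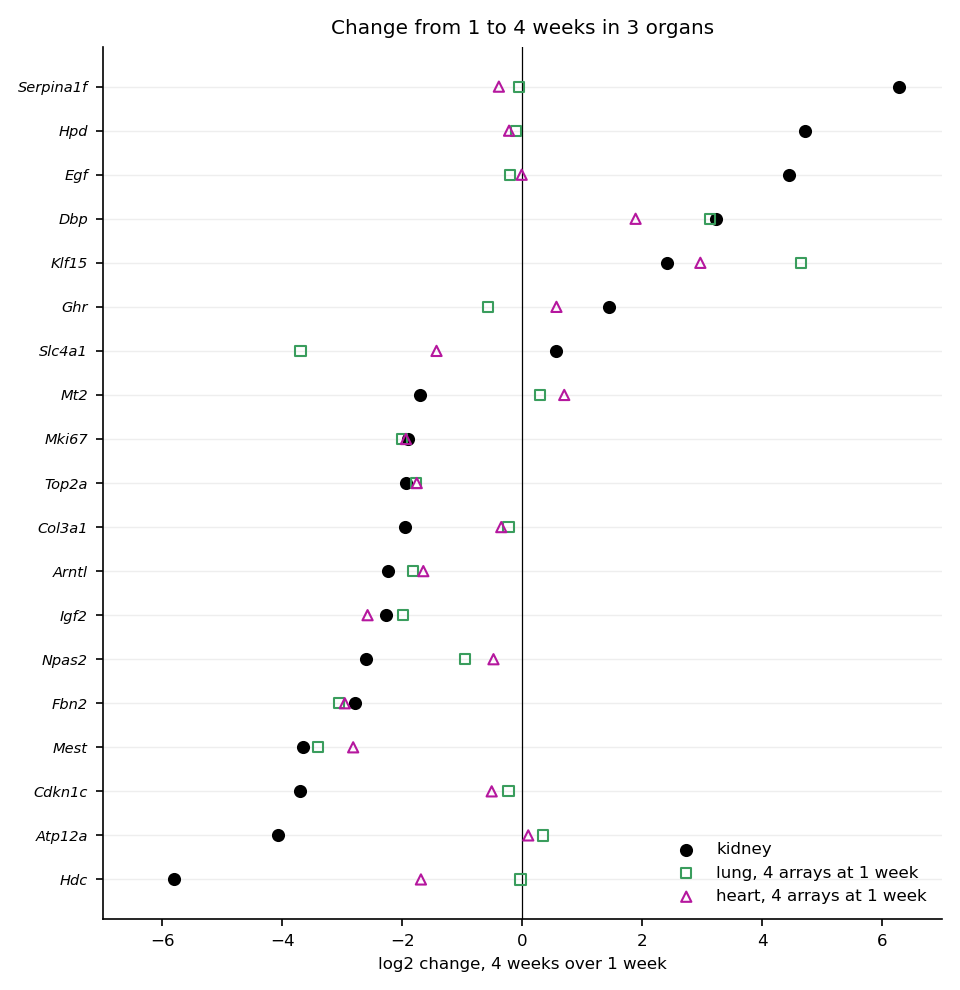
Log2 change from 1 to 4 weeks of the genes named in the comparison of organs, in kidney (black), lung (squares) and heart (triangles), with lung and heart without the array whose organ genes go against its label, 4 arrays at 1 week each. Mki67, Top2a, Igf2, Mest and Fbn2 lie to the left in all 3 organs, Egf, Hpd and Serpina1f lie to the right in kidney alone, and Cdkn1c and Atp12a lie far to the left in kidney alone.

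The signals of 8 weeks show how far the change had gone by 4 weeks, as means set side by side without a test, since both share the 4-week arrays. Serpina1f had means of 104, 9288 and 9283 at 1, 4 and 8 weeks, Egf of 1067, 23663 and 25550, and Mest of 3866, 293 and 308, so most of each difference lay before 4 weeks. Hpd had means of 186, 5212 and 10619, Slc22a7 of 142, 1478 and 2764, and Scd1 of 757, 8347 and 16764, with a further rise in the mean after 4 weeks. Mki67, Col1a1 and Serpina6 had means of 337, 1348 and 1210 at 4 weeks and 114, 587 and 86 at 8 weeks, lower again. Zbtb16 and Cyp24a1 were highest in the mean at 4 weeks, with 1123 and 2163 against 416 and 1273 at 8 weeks. For Cyp24a1 the arrays of the 3 ages overlapped, and its change from 1 to 4 weeks was not called.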

How the data were processed

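The authors deposited linear intensities of Mouse 430 2.0 arrays, hybridised with biotinylated cRNA from total RNA per the labels' protocols, as 1 value per probe set. The submitters' processing notes name RMA and Partek 6.6 without a role, and the deposited intensities have a 2%-trimmed mean of 500 on every array. Values were taken as log2(signal + 16). Of 45101 probe sets 34958 had 1 gene symbol, and the probe set with the highest mean over all 40 arrays stood for each of 18194 genes. Genes whose highest kidney group mean lay under the 40th percentile (a signal of 117.9) were left out. The 15 kidney arrays were fitted with limma 3.58.1 (lmFit, eBayes) in R 4.3.3, with Benjamini-Hochberg adjustment over all genes tested and a threshold of 0.05, and organs were compared in 1 fit of all 40 arrays. Figures were drawn with matplotlib 3.10.9. Precision is set by how many arrays a group has, and depth has no counterpart here. Of 1695 entries in 66 gene lists 1532 were on the array. The members and lists were chosen with earlier results of these data known. Named genes are the 20 largest rises and falls without overlap, up to 6 called members of each list by size and members not called, the largest differences between organs, and a set given whatever its change, of which Ren1 and Ggt1 were not analysed here. Replicate numbers were not taken to pair the samples, since the correlations of the residuals of equal numbers ran from -0.21 to 0.31. The scripts were tested on simulated data, and the alternatives are given below.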

Additional observations from a re-analysis of the deposited data

Results flagged for a closer look

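An array far from the other 4 of its age, by Dixon's test at the 95% level on the log2 scale, was found for 11 of 59 genes whose arrays are given and for the mean of the kidney markers, in 124 groups of 5 arrays looked at, where chance flags about 1 group in 20. The signals were Alb at 322 (lowest, 4-week replicate 3), Atp12a at 115 (highest, 4-week replicate 5), Top2a at 220 (lowest, 4-week replicate 4), Pole at 12 (lowest, 4-week replicate 1), Errfi1 at 18648 (highest, 4-week replicate 3), Six2 at 107 (lowest, 4-week replicate 3), Cubn at 6594 (highest, 1-week replicate 1), Cyp27b1 at 393 (lowest, 1-week replicate 3), Slc14a2 at 1868 (lowest, 1-week replicate 5), Ndufs1 at 8008 (highest, 4-week replicate 3) and Pck1 at 5310 (lowest, 4-week replicate 1). The mean of the kidney markers was at 13.05 on the 1-week replicate 1, above the other 4 arrays of 1 week. The 1-week replicate 1 and the 4-week replicate 3 are also the arrays with the highest labelling controls, and the part of labelling in these values was not tested gene by gene.

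The change from 1 to 4 weeks differed between kidney and lung for 3428 genes and between kidney and heart for 2421, by the limma test of the difference. Among genes of the text the kidney's change minus that of lung was Cdkn1c -3.73, Col3a1 -1.70, Npas2 -1.64, Klf15 -1.79, Mt2 -1.93, Ghr 1.86, Serpina1f 6.16, Egf 4.87, Hpd 4.92, Hdc -6.72, Atp12a -4.59, Slc4a1 3.91 (log2). The kidney's change minus that of heart was Mest -0.86, Cdkn1c -3.03, Col3a1 -1.64, Npas2 -2.14, Mt2 -2.48, Ghr 0.94, Serpina1f 6.31, Egf 4.30, Hpd 4.81, Hdc -3.42, Atp12a -4.11, Slc4a1 2.32. These are values with all arrays as labelled, lung 1-week replicate 4 and heart 1-week replicate 5 included, whose organ genes go against their labels.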

How the results depend on the processing

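The number of genes called, 5827, stayed within 1.5 times under each alternative run. It was 5775 and 5910 with an offset of 1 and 64, 6091 with quantile normalization added, 5714 with no filter on low values, 5440 with the filter at the 60th percentile, 5326 with the mean of all probe sets, 5300 on the 10 arrays alone and 6481 with array weights. Leaving out 1 kidney array gave 5415 to 6102, and the highest count was without the 4-week replicate 3. Quantile normalization moved the share of calls that were higher from 40.6% to 49.5%, with 3013 higher and 3078 lower, and the median log2 change of all genes to 0.03. With the replicate number as a block 5555 genes were called, and the numbers are not taken to pair the samples. Against lung the block gave 3463 genes and against heart 2393, leaving out 1 array gave 2898 to 3539 and 2184 to 2684, and quantile normalization 3376 and 2228. In alternatives chosen after seeing the data, 5906 genes were called without the 2 arrays high in labelling controls and 6716 with these as a block. Of 261 named genes that were called, 241 kept the call under each alternative that tested them and 20 lost it in at least 1, with no change of sign. The sign of 2 genes not called turned with the mean of all probe sets, where Tpx2 was at -0.50 and H2-Ab1 at 0.39, since their other probe sets were called. With that mean Synpo, Trpm6, Slc6a6, Uqcrq, Dld and Slc16a1 lost their call. Cox7a1 and Cx3cr1 lost it without the pair of arrays high in Alb, and Slc6a6, Tkfc, Aqp2 and Fos without the pair high in adrenal genes, and Aqp2 also with quantile normalization. Members that fell in the endoplasmic reticulum list were 5 with that mean, against 8. Dim probe sets limit the result, since a change from or to a signal under 117.9 is smaller on this scale than on a linear one, and near-identical genes can share a probe set.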

Other observations

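Lists of blood and fat were also measured. Of 7 erythroid genes 1 fell and 2 rose, with a median log2 change of 0.01, and of 8 adipocyte genes 1 fell and 2 rose, with a median of 0.01. The shares that fell were 14.3% and 12.5% beside 25.4% of all genes, and those that rose 28.6% and 25% beside 17.3%. The mean of the adipocyte genes lay between 8.82 and 10.97 on the 1-week arrays and between 9.08 and 10.92 on the 4-week arrays, a wide and overlapping range. The E-box CACGTG, which the BMAL1 and CLOCK proteins bind, was in 28.6% of the 21 promoter windows of the clock genes tested. It was in 9.35% of the windows of all genes tested and in 7.15% of all windows, as letters on either strand with no test. The residuals of the 1-week replicate 1 and the 4-week replicate 3, the arrays with high labelling controls, had a correlation of 0.61 over genes, larger than that of any pair of equal replicate numbers.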
